A study of Camelus dromedarius with 4 samples.

Results

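Transcripts of 32 lysosomal enzymes, membrane proteins and their regulator were followed in the supraoptic nucleus of the dromedary camel in winter and in summer. The members were looked up by symbol in the deposited table of season means, which lists 18152 symbols and gives means for 16053 of them. Means were given for 29 members. GRN, which encodes progranulin, and LIPA, the lysosomal acid lipase, were listed without a mean. No symbol was matched to LAMP2, which was therefore not analysed here. Of the 29 members, 28 averaged 10 normalised reads or more in winter or summer, the limit that the study set, and ARSB lay below it.

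Animals of both groups were healthy, age-matched adult males of the Tergui breed. The winter group (replicates 2 and 3) was slaughtered in El Oued and the summer group (replicates 1 and 2) in Ouargla, both in Algeria, each on a single day, so that season cannot be told apart from place and day. Each group has 2 libraries of total RNA depleted of ribosomal RNA. The p-values from these 4 libraries set the season difference against the spread within a season, estimated with information shared between symbols. As the tissue was sequenced in bulk, fewer cells of a type and less RNA per cell cannot be told apart.

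Lysosomes are acidic organelles in which hydrolases digest proteins, glycans and lipids delivered by endocytosis and autophagy. Most of these enzymes are made as precursors, carried to the lysosome by sorting receptors and activated at low pH, while heavily glycosylated membrane proteins line the organelle and channels and transporters move ions and products across it. TFEB is a transcription factor that drives many genes of lysosomal biogenesis. In brain, microglia are rich in lysosomal proteases, and neurosecretory neurons use the same pathway to dispose of aged secretory granules.

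The count files held 4379162 to 6902037 reads on gene models per library, which were 20.7% to 27.8% of the tallied alignments. Their identifiers are not paired with symbols, so the members were read from the season means, each of which is the mean over 2 libraries of counts divided by DESeq size factors. Because every read adds a fixed step to such a mean, the whole reads behind it could be solved. Such solutions show both libraries of a season without naming the replicate, and libraries are therefore given by size factor (1.33 and 0.946 in winter, 0.922 and 0.877 in summer), always with the larger factor first. A single solution in both seasons was found for 12 members, of which 11 had a mean of at least 10. Single solutions existed for 77.7% of summer means above 100 but for 16.0% of winter means above 100, so that members with low winter means were favoured.

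The labelled tissue was checked on OXT, the oxytocin precursor of magnocellular neurons, which had means of 592 in summer and 621 in winter, whereas the symbol AVP was not matched. Libraries of the same season stood apart in other markers. PDYN, the dynorphin precursor that magnocellular vasopressin neurons make, stood at 63.4 and 8.46 normalised reads in winter, against 128 and 127 in summer. Both summer values of PDYN thus lay above both winter values, as in 17.2% of symbols with single solutions. SNAP25, a synaptic protein of neurons, stood at 352 and 122 in winter, against 79.2 and 199.5 in summer. In the mass spectrometry of the study, a winter sample named W3 was described as wrongly isolated. One winter library is labelled replicate 3, and whether both come from the same animal is not given in the sources used here. For the members fitted with single solutions, the range of the fold change with each library left out, or its value without the library that moved it most, is given with the member.

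Taken over the 28 members, the season means were balanced. The mean was higher in winter for 14 members and higher in summer for 14, with a median log2 ratio (winter over summer) of 0.047 and a range from −0.75 to 1.06. Over the 13808 symbols that reach this limit, the median was −0.04. The median absolute log2 ratio of the members was 0.26, against 0.29 over all symbols. More than 1.5-fold apart and higher in winter were 4 members (CTSZ, GAA, CTSF and CTSH), where the background was 10.1% of all symbols. In the other direction it was 1 member, ASAH1, where the background was 12.2%. A difference of more than 2-fold was found for CTSZ, higher in winter as were 2.72% of all symbols, and for no member higher in summer, as were 4.53% of all symbols. These are shares of the deposited means, with no test.

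**Figure D1:**
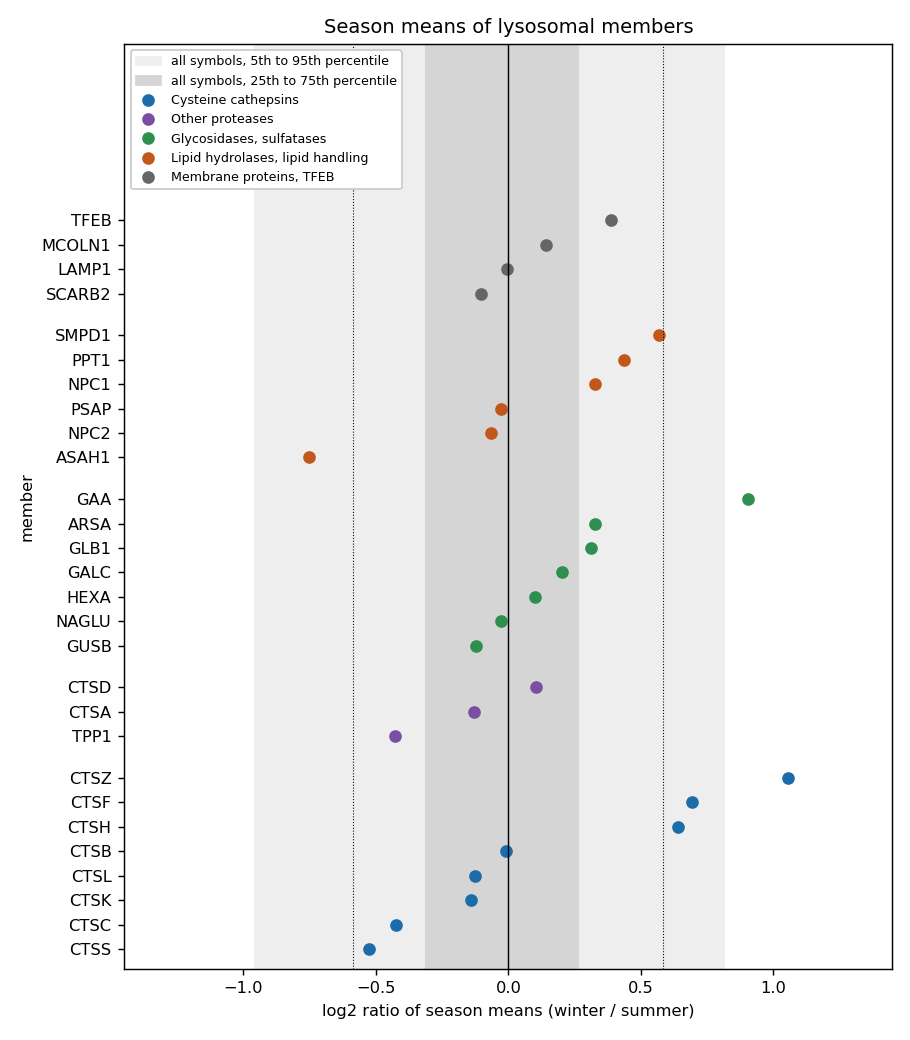
Log2 ratio of the season means (winter over summer, x axis) for each of the 28 members averaging 10 or more in winter or summer (1 point each, coloured by role), with grey bands for the percentiles of all 13808 symbols and dotted lines at 1.5-fold. Inside the inner band lie 14 members, CTSZ at 1.06 and GAA at 0.90 lie beyond the 95th percentile of 0.81, and ASAH1 at −0.75 is the lowest.

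On recovered reads, 0 of the 11 fitted members differed between the seasons with edgeR's quasi-likelihood test, with unadjusted p from 0.107 to 0.753 and Benjamini-Hochberg adjusted p from 0.983 to 0.986. Over all 7664 symbols fitted, the share past an adjusted p of 0.05 was 0.0%, and 152 had an unadjusted p under 0.05 (DESeq2 and edgeR's exact test each called 1 symbol after adjustment, and no member). The rule of the study, an unadjusted p under 0.05 and more than 2-fold, was met by 1.67% of the 7664 symbols fitted and by 0 members. The p used here is that of the quasi-likelihood test, whereas the study names a pairwise exact test. With edgeR's exact test, 106 symbols and 0 members met the rule. The fold change was above 0 (higher in winter) for 8 of the 11, and their median log2 fold change was 0.34 against −0.11 over all fitted symbols. The 11 are not representative of all 28, whose season means had a median log2 ratio of 0.047. In each of the 11, the difference between the season means was smaller than the larger of the differences between libraries of a season, which held for 80.4% of the 7365 single-solution symbols with reads in every library. With 2 libraries against 2, an exact permutation test of a single gene cannot go below a two-sided p of 0.333. Standard errors (SE) were derived as the absolute log2 fold change divided by the square root of the test's F statistic. The smallest was 0.34 on the log2 scale, and the largest was 0.67.

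Non-overlap of the libraries was read from all solutions. Under every solution, both libraries of winter exceeded both of summer in 2 of the 28 members (CTSH and CTSZ), and in 7.86% of all symbols. The reverse was seen in 1 member (GUSB), and in 9.62% of all symbols. Among symbols with single solutions alone the shares were 13.3% with winter above and 17.2% with summer above, and the same 3 of the 11 members were found. The gaps were small, as the nearest libraries of the seasons lay 4.37 normalised reads apart for CTSH, 0.27 for CTSZ and 0.092 for GUSB.

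**Figure D2:**
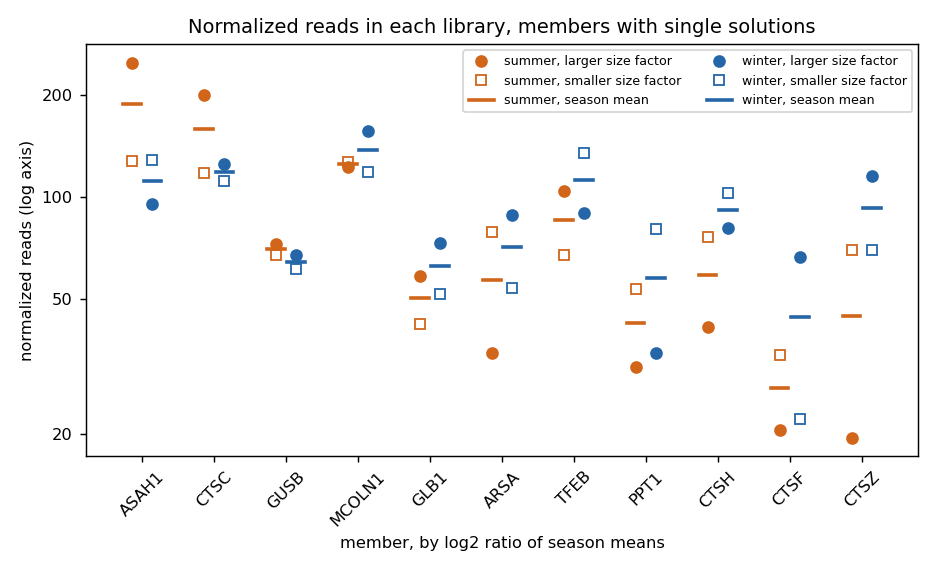
Normalised reads (log axis) in each of the 4 libraries for the 11 members with single solutions, in order of the log2 ratio of their season means. Filled circles are the library of larger size factor, open squares that of smaller size factor, and bars the season means. In most members the symbols of both seasons interleave, CTSZ has 1 low summer library at 19.5, and ASAH1 has 1 high summer library at 248.

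Cysteine cathepsins are the papain-like proteases of the lysosome, and their 8 members had a median log2 ratio of −0.07, with 3 higher in winter and 5 higher in summer. CTSZ encodes cathepsin Z, a carboxypeptidase. It stood at 115 and 69.8 normalised reads in winter, against 19.5 and 69.5 in summer. One summer library was low, while the other was level with the lower winter library. Its log2 fold change was 1.07 (SE 0.59, unadjusted p = 0.107, adjusted p = 0.983). Left without the summer library of smaller size factor, so that 1 summer library remained and the spread within summer was not measured, the log2 fold change was 2.25. Without the summer library of larger size factor it was 0.42.

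CTSH, cathepsin H, an aminopeptidase, stood at 80.7 and 102.6 in winter, against 41.2 and 76.4 in summer, with both winter values above both summer values. Its log2 fold change was 0.64 (SE 0.43, unadjusted p = 0.174, edgeR), and 0.26 to 1.15 with each library left out. CTSF, cathepsin F, stood at 66.4 and 22.2 in winter, against 20.6 and 34.2 in summer. The winter libraries enclosed both summer libraries, and the log2 fold change of 0.73 (SE 0.67) became −0.30 without the winter library of larger size factor. CTSC, cathepsin C, the dipeptidyl peptidase that activates granule proteases of immune cells, stood at 125 and 111 in winter, against 199.5 and 117 in summer. Here 1 summer library was high and the other lay between the winter libraries, and the log2 fold change was −0.42 (SE 0.38), or 0.01 without the high summer library.

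The other cysteine cathepsins had several solutions in winter. CTSB, cathepsin B, an endo- and exopeptidase, had season means of 525 in winter and 528 in summer, with 522 and 533 in the summer libraries. CTSL, cathepsin L, an endopeptidase, had means of 341 in winter and 372 in summer, with 365 and 378 in the summer libraries. CTSK, cathepsin K, known as the collagenase of osteoclasts, had means of 182 and 201, with 221 and 181 in the summer libraries. The summer libraries of these 3 lay within a log2 ratio of 0.29 of each other, and the log2 ratio of the season means was between −0.14 and −0.01. CTSS, cathepsin S, a protease of microglia and antigen-presenting cells, had means of 356 in winter and 513 in summer, and its solutions put the summer libraries at either 81.3 and 945 or 639 and 388. The log2 ratio of its means was −0.53, and its unadjusted p at each solution was at least 0.394.

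Among the other proteases, CTSD is cathepsin D, the main aspartic protease of the lysosome. CTSA is a serine carboxypeptidase that also protects β-galactosidase and neuraminidase, and TPP1 is a tripeptidyl peptidase. CTSD had means of 601 in winter and 559.9 in summer, with 459.8 and 660.0 in the summer libraries. CTSA had means of 406 and 444, with 555 and 333 in the summer libraries. TPP1 had means of 134 and 181, with 229 and 132 in the summer libraries. The summer libraries thus differed more than the season means in all 3. The log2 ratio of season means was 0.10 for CTSD, −0.13 for CTSA and −0.43 for TPP1. For TPP1 the winter libraries stood at either 5.28 and 263 or 145 and 124, and the unadjusted p was 0.719 or 0.320.

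Glycosidases and sulfatases remove sugars and sulfate from glycans and glycolipids, and 5 of the 7 with a mean of at least 10 were higher in winter, with a median log2 ratio of 0.20. GAA is the acid α-glucosidase that degrades glycogen. Its means were 213 in winter and 114 in summer, a log2 ratio of 0.90, and its summer libraries stood at 107 and 121. Of its 2 winter solutions, 254 and 173 lie above both summer libraries, and 114 and 313 do not. At the first of these the log2 fold change was 0.91 (SE 0.38, unadjusted p = 0.0456, edgeR), under 2-fold, and at the other the unadjusted p was 0.123. No adjusted p is given here, since the solution cannot be chosen. Of the 14 members with several solutions that were fitted at each, GAA was the only one with an unadjusted p under 0.05.

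ARSA, arylsulfatase A, which desulfates sulfatide of myelin, stood at 88.3 and 53.9 in winter, against 34.7 and 78.6 in summer. The seasons overlapped, and the log2 fold change of 0.34 (SE 0.50) ran from −0.14 to 1.04 with each library left out. GLB1, β-galactosidase, stood at 73.2 and 51.8 in winter, against 58.6 and 42.2 in summer, with a log2 fold change of 0.32 (SE 0.43), or 0.04 to 0.57 with each library left out. The higher library of each season exceeded the lower library of the other. GUSB, β-glucuronidase, stood at 67.16 and 61.3 in winter, against 72.7 and 67.25 in summer. All 4 values of GUSB were close, and the log2 fold change was −0.12 (SE 0.37), or −0.19 to −0.06 with each library left out.

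HEXA, the α subunit of β-hexosaminidase A, had means of 480.3 in winter and 448 in summer, with 527 and 369 in the summer libraries. GALC, which degrades galactosylceramide of myelin, had means of 326 and 283, with 332 and 235 in the summer libraries. NAGLU, an enzyme of heparan sulfate breakdown, had means of 130.1 and 133, with 133 and 132 in the summer libraries. The log2 ratios of their season means were 0.10, 0.20 and −0.03, in this order.

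ARSB, arylsulfatase B, which acts on dermatan sulfate, was the member below the limit on low values. It had 1 read in each winter library and 5 and 10 reads in the summer libraries, or 0.755 and 1.06 normalised reads in winter and 5.42 and 11.4 in summer. Both summer values lay above both winter values, as in 17.2% of symbols with single solutions and a mean of at least 10, a set that leaves out ARSB. Summed over a season, 15 summer reads and 2 winter reads gave a ratio of 9.46 (summer over winter) with an exact 95% interval from 2.20 to 85.3, which covers counting error only and not the spread between animals. In a fit with no filter on low counts, its log2 fold change was −3.08 (SE 1.17, unadjusted p = 0.0270, adjusted p = 0.984, edgeR quasi-likelihood). There it was the only member among the 160 symbols past the fold and p of the study's rule. The study itself left out genes as low as ARSB.

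Lipid hydrolases and lipid carriers comprised 6 members with a median log2 ratio of 0.15, with 3 higher in each season. ASAH1, acid ceramidase, had the largest difference towards summer among the 28 members. It stood at 95.1 and 128.0 in winter, against 248 and 127.7 in summer. Only 1 summer library was high, and the other was level with the higher winter library. The log2 fold change was −0.76 (SE 0.42, unadjusted p = 0.108, adjusted p = 0.983, edgeR), and it was −0.20 without the high summer library and −1.16 without the other.

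SMPD1, acid sphingomyelinase, had means of 149 in winter and 100.3 in summer, with 87.8 and 113 in the summer libraries. Its winter libraries stood at either 165 and 132, both above summer, or 25.7 and 272, which enclose summer. The unadjusted p was 0.145 and 0.546, in that order. PPT1, a thioesterase that removes palmitate from proteins, stood at 34.7 and 80.4 in winter, against 31.4 and 53.6 in summer. In both seasons the library of smaller size factor was higher, and the log2 fold change of 0.41 (SE 0.56) became −0.29 without the winter library of smaller size factor.

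NPC1 and NPC2 hand cholesterol out of the lysosome, NPC1 as a membrane protein and NPC2 as a soluble carrier. NPC1 had means of 863 in winter and 688 in summer, a log2 ratio of 0.33. NPC2 had means of 198 and 207, a log2 ratio of −0.07, with 199.5 and 215 in the summer libraries. PSAP, the precursor of saposins that present lipids to hydrolases, had means of 5421 in winter and 5519 in summer, a log2 ratio of −0.03. It had too many solutions to read single libraries.

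Membrane proteins and the regulator comprised 4 members with means, at a median log2 ratio of 0.07. LAMP1, a glycoprotein that lines the lysosomal membrane, had means of 627 in winter and 630.0 in summer. SCARB2, the receptor that carries glucocerebrosidase to the lysosome, had means of 1178 and 1265. MCOLN1, the cation channel through which lysosomes release calcium, stood at 156 and 118 in winter, against 123 and 127 in summer. The winter libraries enclosed both summer libraries, with a log2 fold change of 0.15 (SE 0.34), or −0.07 to 0.33 with each library left out. TFEB stood at 89.8 and 134 in winter, against 104 and 67.2 in summer. Its seasons overlapped, and the log2 fold change of 0.38 (SE 0.40, unadjusted p = 0.369, edgeR) ran from 0.07 to 0.73 with each library left out.

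Differences within a season were compared next. Of the 23 members with a single summer solution and a mean of at least 10, 11 were higher in the summer library of larger size factor and 12 in the other, with a median log2 ratio (larger over smaller) of −0.03 and a median absolute log2 ratio of 0.51. Over 11886 symbols the median was −0.07 and the median absolute value 0.49. CTSZ (−1.83) and ARSA (−1.18) were lowest in the library of larger size factor, and ASAH1 (0.96), TPP1 (0.79), CTSC (0.77) and CTSA (0.74) were highest in it. Summed over the 11 fitted members, normalised reads were 992 and 934 in winter and 953 and 861 in summer, so that the sums of the seasons overlapped while single members such as CTSZ differed more than 2-fold between libraries of a season.

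Markers of other cell types were set beside these values. In the summer library of larger size factor, 4 of 4 neuronal markers with a single summer solution were lower (median log2 ratio −1.38) and 5 of 5 astrocyte markers were lower (−1.25), while 3 of 3 oligodendrocyte markers (0.52) and 5 of 7 microglia and macrophage markers (0.77) were higher. Between the seasons, the 14 microglia and macrophage markers with means had a median log2 ratio of −0.16, with 5 higher in winter and 9 in summer. They ranged from −0.98 (CD163, a scavenger receptor of macrophages) to 0.92 (CSF1R, a growth factor receptor of microglia), and the sum of their season means was 8657 in winter and 10594 in summer. Summed over the 5 with single solutions, the libraries stood at 430.1 and 498 normalised reads in winter, against 441 and 487 in summer, where MRC1, a receptor of macrophages, alone stood at 14.1 and 229. The 7 neuronal markers had a median log2 ratio of 0.61, with 4 more than 1.5-fold higher in winter (10.1% of all symbols) and 0 in summer. The 8 astrocyte markers had a median of −0.26, with 4 higher in each season. Of these, 4 were more than 1.5-fold higher in summer (12.2% of all symbols) and 0 in winter. The sum of the astrocyte season means was 23059 in winter and 37953 in summer, of which GFAP held 14423 and 25074. For the 8 oligodendrocyte markers the median was 0.18, with 2 more than 1.5-fold higher in winter and 0 in summer. The 9 endothelial and mural markers had a median log2 ratio of −0.12, with 3 higher in winter and 6 in summer. They ranged from −1.26 (KDR, an endothelial growth factor receptor) to 0.68 (TIE1), and the sum of their season means was 1711 in winter and 1691 in summer. Their 5 with single solutions, which favour low winter means, summed to 373 and 357 in winter, against 695 and 579 in summer. In 4 of the 9, all of them with single solutions, both summer libraries exceeded both winter libraries. This held for 9.62% of all symbols under every solution and for 17.2% of those with single solutions. KDR met the rule of the study (log2 fold change −1.26, unadjusted p = 0.00832, adjusted p = 0.983, edgeR), as did 1.67% of all symbols fitted. PDYN of the magnocellular markers met it too, also higher in summer. For the 4 blood markers the sum of the season means was 306 in winter and 341 in summer. The 3 with single solutions summed to 52.8 and 130.1 in winter, against 142 and 141 in summer. No marker with a mean was at 0 in both seasons. The part of these markers in the values of CTSZ, ARSA, ASAH1 and CTSC was not tested.

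**Figure D3:**
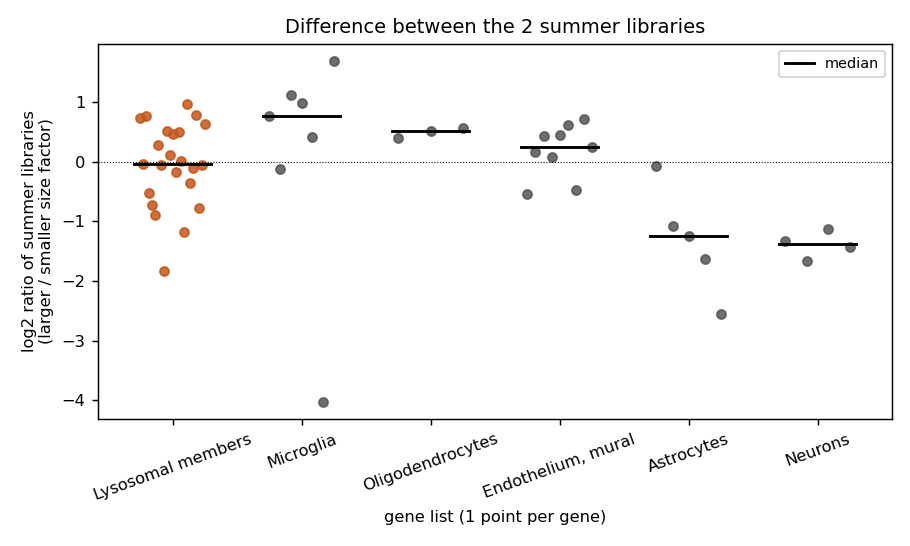
Log2 ratio of normalised reads between the 2 summer libraries (larger over smaller size factor, y axis) for the lysosomal members and for cell type markers with a single summer solution and a mean of at least 10, 1 point per gene, with a bar at each median. The 23 members spread on both sides of 0 around −0.03, whereas all 4 neuronal and all 5 astrocyte markers lie below 0.

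Other genes of the pathway, 155 in 7 lists that hold no member, were described in the same way. Of these, 137 had a mean of at least 10, with a median log2 ratio of 0.01, 9 more than 1.5-fold higher in winter (10.1% of all symbols) and 4 more than 1.5-fold higher in summer (12.2% of all symbols). Of the 44 that could be fitted, 0 met the rule of the study (1.67% of all symbols fitted) or an adjusted p of 0.05 (edgeR). Under every solution, both winter libraries exceeded both summer libraries in 7 of the 137 (7.86% of all symbols). The reverse was seen in 3 (9.62% of all symbols). The 31 other soluble hydrolases and activators had a median of 0.02, and 0 of them were more than 1.5-fold apart. The members of the proton pump that acidifies the lysosome had a median of 0.00 over 19 genes. Sorting and fusion factors for delivery to the lysosome stood at 0.16 over 18 genes, membrane proteins and transporters at 0.08 over 26 genes, and regulators and nutrient sensors at 0.08 over 16 genes.

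In each list the gene with the largest difference between its season means is given next. Among the soluble hydrolases it was LGMN, the asparaginyl protease legumain that processes cathepsins, with means of 260.5 in winter and 376 in summer. In the proton pump list it was ATP6V1G1, a subunit of the pump, with means of 452 and 723. TTYH3, of the list of membrane proteins and transporters, had means of 147 and 71.7. VPS16, a subunit of the complexes that tether vesicles to the lysosome, stood at 38.5 and 37.0 normalised reads in winter, against 16.3 and 21.7 in summer, with a log2 fold change of 0.99 (unadjusted p = 0.129, adjusted p = 0.983, edgeR). LAMTOR2, a subunit of the complex that recruits the nutrient-sensing kinase mTORC1 to the lysosome, stood at 34.7 and 11.6 in winter, against 10.8 and 12.5 in summer, with a log2 fold change of 1.04 (unadjusted p = 0.241, edgeR). The winter libraries lay above the summer libraries for VPS16, as in 13.3% of symbols with single solutions, and overlapped them for LAMTOR2. Neither gene passed the test.

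**Figure D4:**
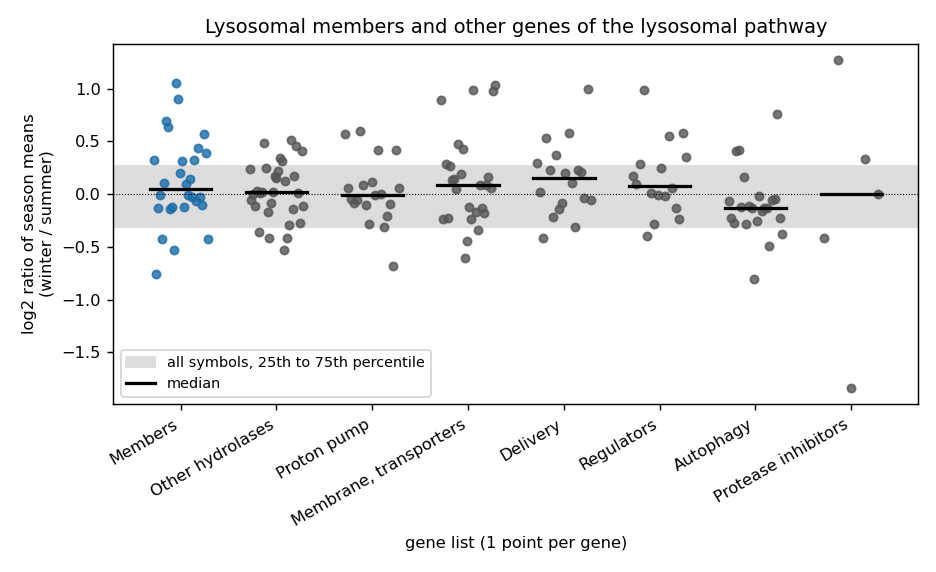
Log2 ratio of the season means (winter over summer, y axis) for the 28 members and for 7 lists of other genes of the lysosomal pathway averaging 10 or more in winter or summer, 1 point per gene, with a bar at each median and a grey band from the 25th to the 75th percentile of all symbols. The median of each list lies inside the band, the members at 0.05 and the autophagy list lowest at −0.13.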

How the data were processed

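Members and lists were chosen with earlier results of these data known. The deposited counts are raw HTSeq read counts per gene model from stranded paired-end libraries that the authors aligned to their own assembly with TopHat. The strand setting and tool versions are not given in the sources used here. The deposited table holds the authors' signal per symbol, the average over a season of counts scaled by DESeq size factors, to 6 significant digits, and edgeR fold changes and p-values, which were not used. No gene model carries a symbol, so the counts served for depth and spread only.

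The step that 1 read adds to a mean was estimated for each library, and each mean was solved for 2 whole numbers. Solutions existed for 99.99% of 16049 symbols (4 listed repeatedly were left out). The design did not state how members with several solutions are treated. They were fitted at each solution (at most 12 combinations), chosen after seeing the data. Symbols with single solutions, averaging 10 or more in winter or summer, entered the quasi-likelihood test of edgeR 4.0.16 (R 4.3.3, glmQLFit with legacy set to FALSE), with library sizes from the size factors. The steps were tested on simulated data. Alternatives were DESeq2 1.42.0, the exact test, other scalings and filters and leaving out each library. Named genes are the members, the largest difference of each other list (the 3 largest for autophagy and protease inhibitors) and cell type markers. SNAP25, MRC1 and KDR were picked among the markers after their values were seen. Levels per coding length, sequences and promoter motifs, planned where such tables exist, were not analysed here. The 2 libraries per season limit the precision, and intervals cover counting error only.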

Additional observations from a re-analysis of the deposited data

How the results depend on the processing

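No paired analysis was possible because the winter and summer groups were different animals, slaughtered at different places and on different days. For the 11 fitted members, 128 log2 fold changes were computed under 12 alternatives, and 6 of them changed sign, each with 1 library left out. Without the winter library of larger size factor these were ARSA (−0.068), CTSF (−0.30) and MCOLN1 (−0.072), without the winter library of smaller size factor PPT1 (−0.29), and without the summer library of larger size factor ARSA (−0.14) and CTSC (0.0102). Leaving out a library moved the number of members past an adjusted p of 0.05 between 0 and 1, those past the rule of the study between 0 and 3 (CTSZ, ASAH1 and CTSH, without the summer library of smaller size factor), all symbols past an adjusted p to 289 and 217 without a summer library (larger and smaller size factor) and 0 without either winter library, and all symbols past the rule to 1114 and 1163 without a summer library and 35 and 49 without a winter library. With no filter on low counts, 160 symbols passed the fold and p of the rule, with 1 member (ARSB) among them. DESeq2 called 1 symbol after adjustment and 60 by the rule, the exact test 1 after adjustment, and a mean of at least 10 in both seasons gave 80 symbols by the rule, against 0 and 128 in the report. Members more than 1.5-fold apart numbered 5, and 2 with a mean of at least 100, while 13 passed the lower fold tried in its place and 1 was more than 2-fold apart. Over gene models of the count files, edgeR called 0 after adjustment (685 at an unadjusted p under 0.05) and 470 by the rule, DESeq2 12 and 248, and leaving out a replicate gave 309 to 2462 by the rule and 0 after adjustment. A season left with 1 library has no measured spread, so counts with a library left out rest on the spread of the other season. The causes were not tested.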

Other observations

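Autophagy genes, which build the vesicles that deliver cytoplasm to the lysosome, had a mean higher in summer in 18 of 22 and higher in winter in 4, with a median log2 ratio of −0.13 against −0.04 over all symbols, of which 7429 of 13808 were higher in summer. No test was made of this list. GABARAPL2, a ubiquitin-like protein of the autophagosome membrane, had means of 124 in winter and 218 in summer. ULK1, the kinase that starts autophagy, went the other way, at 201 and 128 normalised reads in winter, against 71.6 and 123 in summer (log2 fold change 0.76, unadjusted p = 0.103, adjusted p = 0.983, edgeR). RUBCN, an inhibitor of autophagosome maturation listed under an older symbol, stood at 24.1 and 27.5 in winter, against 32.5 and 39.9 in summer (unadjusted p = 0.396, edgeR). Of the 22, 1 was more than 1.5-fold higher in winter (10.1% of all symbols) and 1 in summer (12.2% of all symbols).

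Inhibitors of cysteine cathepsins were split as well. CST7, cystatin F, an inhibitor made by immune cells, stood at 30.9 and 18.0 normalised reads in winter, against 4.34 and 16.0 in summer (unadjusted p = 0.157, edgeR). Its winter values lay above its summer values, as in 13.3% of symbols with single solutions. CSTA, cystatin A, was counted with 2 and 4 reads in winter, and with 0 and 18 in summer. CST3, cystatin C, had means of 731 in winter and 977 in summer.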
